A study of Mus musculus with 8 samples.

Results

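The genes examined here encode the enzymes and transporters of glycolysis, the enzymes of the pentose phosphate pathway, and components and well-known targets of the hypoxia response. They were taken by symbol from a fixed list of 19 glycolytic, 6 pentose phosphate and 11 hypoxia genes. All 36 were found among the 15867 genes of the deposited expression table, and all 36 passed the filter on low values (a mean of at least 10 over the libraries). RNA was sequenced from F4/80+ cells taken from the adipose tissue of mice fed a high-fat diet for 20 weeks, in 8 libraries. F4/80, encoded by Adgre1, is a surface protein of mouse macrophages. The control group (n = 4) had the genotype Mirc11fl/fl Mirc22fl/fl Lyz2+/+, and the knockout group (n = 4) had the genotype Mirc11fl/fl Mirc22fl/fl Lyz2Cre/Cre. Both groups thus carried loxP-flanked alleles of the 2 microRNA clusters, which encode miR-23, miR-27 and miR-24 family members. Lyz2Cre places Cre recombinase in the Lyz2 gene and deletes flanked DNA in myeloid cells, so that cells of other kinds in the same preparation keep the clusters. By genotype, the knockout group thus combined cluster deletion in myeloid cells with Cre expression and loss of Lyz2. No group had Cre with intact clusters, and the deletion itself was not measured here. The labels do not say whether each replicate was 1 animal, so a p-value reflects sample-to-sample spread that may be partly technical.

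Recovered library totals ran from 31789395 to 46621080 reads. A level below is a deposited normalized count, and a difference is that of log2(normalized count + 1), knockout minus control, tested with limma across 15862 genes. Lyz2, into which Cre is inserted, averaged 175870 in controls and 207.98 in knockouts, so the libraries match their genotype labels. The defining macrophage markers Adgre1, Csf1r and Cd68 were abundant in every library, with group means between 32423 and 64107. The summed level of 16 macrophage markers was 596210 to 795500 in controls and 493240 to 547060 in knockouts, without overlap. All 16 had lower mean values in knockouts, with a median difference of -0.32. Of them, 6 fell at an adjusted p under 0.05 in limma, against 2.38% of all genes. Markers of other cells had mostly higher values: 12 of 13 endothelial and mural, 11 of 11 fibroblast, 8 of 9 adipocyte and 7 of 7 dendritic cell genes. The same held for 9 of 10 T and NK cell, 5 of 5 B cell, 7 of 7 mast cell and eosinophil, 5 of 5 erythroid, 4 of 5 mesothelial and 4 of 5 neutrophil genes. Among all these other markers, only 1 fibroblast gene and 1 mast cell and eosinophil gene rose and none fell. The shares of all genes were 1.24% and 2.38%. The summed level of the T and NK cell genes went the other way, at 5013.8 to 6481.5 in controls and 4283.3 to 4753.7 in knockouts. That sum was mostly Il7r (mean 5101.5 in controls and 3746.1 in knockouts), the only gene of the list with lower values. The dendritic cell sum, mostly Zbtb46, was 1027.3 to 1691.4 in controls and 2070.8 to 2291.9 in knockouts. Zbtb46 (mean 899 in controls and 1386 in knockouts) was the only gene of that list whose groups did not overlap. No marker measured was at 0 in any library. In bulk RNA, fewer cells of a type and less RNA per cell cannot be told apart.

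Glycolysis splits glucose into pyruvate and is paced mainly at hexokinase, phosphofructokinase and pyruvate kinase. Fructose 2,6-bisphosphate, made and removed by the PFKFB enzymes, is a strong activator of phosphofructokinase. The pentose phosphate pathway branches off at glucose 6-phosphate and supplies NADPH and ribose. When oxygen is low, prolyl hydroxylases stop marking the HIF-1α protein for breakdown, and HIF then raises the transcription of glycolytic and other genes. Inflammatory activation of macrophages is known to come with increased glycolysis, and adipose tissue is known to become poorly oxygenated as it expands.

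Some microRNAs of the deleted clusters are shown, with their seeds (bases 2 to 8) in capitals. These seeds define the sites searched for in the members. Others, such as miR-23b of Mirc22, are not shown. The mature sequences are RefSeq's on GRCm38.p6, 5′ to 3′, and miR-27a and miR-27b share a seed.
mmu-miR-23a-3p, chr8:84208563-84208583 (+): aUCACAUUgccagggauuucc
mmu-miR-27a-3p, chr8:84208727-84208747 (+): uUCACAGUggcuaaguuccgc
mmu-miR-27b-3p, chr13:63300760-63300780 (+): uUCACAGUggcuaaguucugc
mmu-miR-24-3p, chr8:84208875-84208896 (+): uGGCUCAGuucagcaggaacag
The same mature miR-24-3p is also encoded at chr13:63301251-63301272 (+).

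An 8-base match to a seed (the complement of bases 2 to 8 followed by A) was present after the stop codon of 6 of the 36 members. The sites are shown with the match in capitals, on the sense strand of the gene and at mm10 positions of the GENCODE M21 annotation, in windows of 30 bases.
Bnip3l, miR-23 site, chr14:66986509-66986538 (-): tctgtttctaaAATGTGAAgctttaggacc
Egln1, miR-27 site, chr8:124908887-124908916 (-): tcctggaggtcACTGTGAAaacaaacaaac
Pfkl, miR-24 site, chr10:77987655-77987684 (-): gatcttaaccgCTGAGCCAtctctccagtc
Pkm, miR-24 site, chr9:59679005-59679034 (+): cagggccctacCTGAGCCAggggtggagga
Slc16a1, miR-24 site, chr3:104656672-104656701 (+): atgctgtaccaCTGAGCCAcaacccacagg
G6pdx, miR-24 site, chrX:74409915-74409944 (-): actggccctatCTGAGCCAcccatctttcc

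The miR-23 and miR-27 sites each occurred in 2.78% of members, against 7.14% and 6.41% of 14796 genes tested that have an annotated 3′ untranslated region. The miR-24 site occurred in 11.1% of members against 8.77% of genes. None of the 6 members with a site passed the test. Their differences went both ways, from -0.25 for Pkm to 0.23 for G6pdx. Pfkfb4, the member with the clearest difference between the groups, held none of the 3 sites. No member lies within 2 Mb of Lyz2, Mirc11 or Mirc22.

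Of the 36 members, 1 fell in the knockout and 0 rose at an adjusted p under 0.05. Among all 15862 genes tested, 3.61% passed this threshold, 2.38% lower and 1.24% higher in the knockout. Those are 377 genes that fell and 196 that rose, while scaling every library to the same total gave 244 and 245. The gene that fell was Pfkfb4, a glycolytic regulator. No pentose phosphate and no hypoxia member passed in limma or in edgeR's quasi-likelihood test on the recovered reads. DESeq2 on those reads gave 5 glycolytic members, all lower, 1 pentose phosphate member, which was higher, and 0 hypoxia members. It also called more genes in all than limma did, 891 of 15862 lower and 666 higher in the knockout.

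At an unadjusted p under 0.05, 8 of 19 glycolytic members had lower values in the knockout and 0 had higher values. The background was 10.4% of all genes lower and 10.8% higher. At the same level the pentose phosphate genes gave 0 lower and 1 higher of 6, and the hypoxia genes gave 1 lower and 1 higher of 11. In 6 of 19 glycolytic members every knockout library lay below every control library, against 8.21% of all genes. For 1 of 6 pentose phosphate members every knockout library lay above every control library, against 5.52% of all genes. No hypoxia member had groups that did not overlap.

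The median difference was -0.13 over the glycolytic members, -0.02 over the pentose phosphate members and -0.08 over the hypoxia members, beside 0.00 over all genes tested. Values were lower in the knockout for 16 of 19 glycolytic, 4 of 6 pentose phosphate and 6 of 11 hypoxia members. The lower glycolytic values stood beside a lower summed level of the macrophage markers in the same libraries (ratio of group means 0.77). They also stood beside higher summed levels of endothelial and mural (1.37), fibroblast (1.32) and adipocyte (1.34) markers, whose groups overlapped. The adipocyte sum was mostly Fabp4 (mean 51116 in controls and 68722 in knockouts), so its ratio is largely that of 1 gene. The part of the macrophage and other markers in the glycolytic values was not tested.

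**Figure D1:**
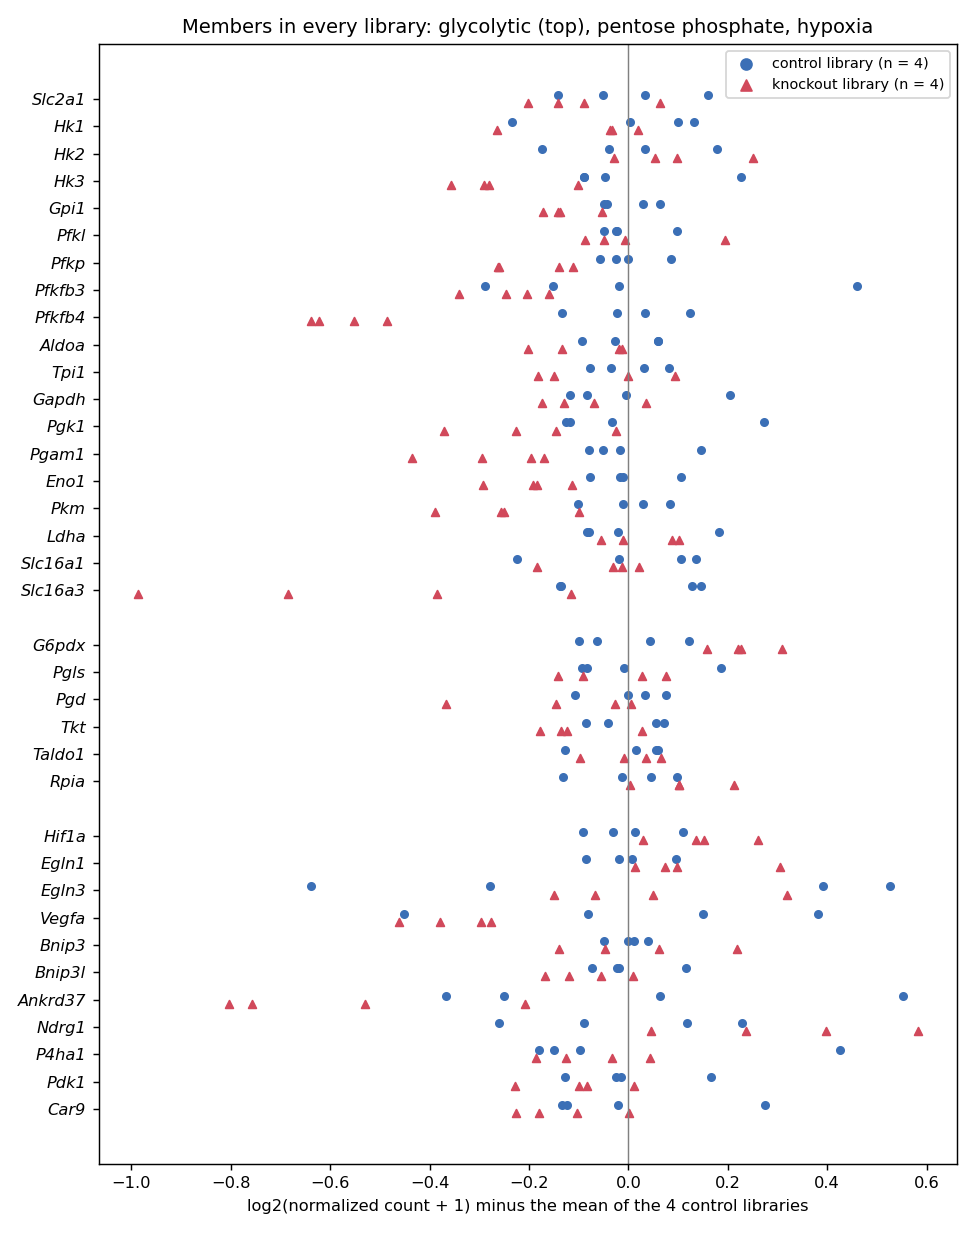
Level of each of the 36 members in each library, as log2(normalized count + 1) minus the mean of the 4 control libraries (horizontal axis), for control (circles) and knockout (triangles) libraries. Pfkfb4 shows a clear gap between the groups, while most members overlap, and G6pdx has all 4 knockout libraries above all 4 control libraries.

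Glucose enters through Slc2a1 (GLUT1) and is trapped by hexokinases. Slc2a1 averaged 1502 ± 135 (SD, n = 4) in controls and 1408 ± 113 (n = 4) in knockouts, and its groups overlapped. Hk3, the hexokinase of myeloid cells, was at 10100, 10103, 10397 and 12582 in controls and at 8791.6, 8395.7, 10016 and 8847.8 in knockouts. All 4 knockout libraries lay below all controls, but knockout replicate 3 came close to the lowest control. The difference was -0.26 (SE 0.09, 95% interval -0.45 to -0.06), with a limma adjusted p of 0.137. The ubiquitous Hk1 differed by -0.08 (SE 0.09) and the insulin-responsive Hk2 by 0.09 (SE 0.09), both with overlapping groups.

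Gpi1 converts glucose 6-phosphate to fructose 6-phosphate. It was at 15705, 14858, 14922 and 16061 in controls and at 13647, 13948, 14828 and 13982 in knockouts. The highest knockout library lay just under the lowest control library. The difference was -0.13 (SE 0.05), a fold of 0.917, with an adjusted p of 0.213.

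Phosphofructokinase commits the sugar to glycolysis. Its platelet-type gene Pfkp was at 5651.5, 6101.6, 5527.6 and 5748.1 in controls and at 4798.3, 4801.1, 5222.8 and 5326.3 in knockouts. The groups did not overlap, and the difference of -0.19 (SE 0.06) had an adjusted p of 0.0956. The liver-type gene Pfkl, which carries one of the miR-24 sites above, was at 1983 ± 92.4 and 2005 ± 181, a difference of 0.01 with an interval of -0.15 to 0.17.

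Pfkfb4 lies at chr9:108991778-109032228 (+, mm10) and encodes an enzyme that makes and breaks down fructose 2,6-bisphosphate. It was at 3214.5, 2864.3, 3095.1 and 3423.1 in controls and at 2017.7, 2040.7, 2243.7 and 2142.7 in knockouts. Every knockout library lay well below the lowest control library. Means were 3149 ± 233 and 2111 ± 104, and the difference was -0.58 (SE 0.06, 95% interval -0.72 to -0.43), a fold of 0.671. The limma adjusted p was 0.00413, the 37th smallest p of all genes tested. With any 1 library left out, Pfkfb4 stayed past the threshold, at adjusted p-values from 0.00868 to 0.0202. It was also past the threshold in edgeR (adjusted p 0.00458) and DESeq2 (4.87e-12) on the recovered reads.

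Pfkfb3, the strongly kinase-directed member of that family, showed no such separation. Controls were at 3508.4, 3857.3, 4230.7 and 5900.9 and knockouts at 3720, 3612.1, 3837.9 and 3386. The controls spread widely, with replicate 4 far above the rest, and 3 of the 4 knockout libraries lay within the control range. The difference was -0.24 (SE 0.14, interval -0.56 to 0.08), with an adjusted p of 0.377. The ratio of the Pfkfb3 to the Pfkfb4 level was 1.38 ± 0.26 in controls and 1.73 ± 0.11 in knockouts, and the groups of ratios overlapped.

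The middle of the pathway was measured at high levels with small differences. Aldoa, Tpi1 and Gapdh, which carry the carbon from fructose 1,6-bisphosphate to 1,3-bisphosphoglycerate, differed by -0.09, -0.06 and -0.08, each with an SE of 0.07 to 0.09. Gapdh, the most abundant member per kilobase, was at 34251, 28084, 27421 and 29630 in controls and at 27174, 28338, 30453 and 26374 in knockouts. Control replicate 1 was the highest library and the other libraries of both groups were mixed. Pgk1, which makes the first ATP of the pathway, differed by -0.19 (SE 0.10) with overlapping groups.

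The last steps from 3-phosphoglycerate to pyruvate had lower values in knockouts, without passing the limma test. Pgam1 (phosphoglycerate mutase) was at 6157.3, 5497.8, 5373 and 5266 in controls and at 4115.5, 4533, 4948.6 and 4853.9 in knockouts. Its groups did not overlap, and the difference was -0.27 (SE 0.07) with an adjusted p of 0.0819. Reads may be split between Pgam1 and its near-identical copy Pgam1-ps2, which was at 585 ± 124 and 459 ± 75.2 (difference -0.34, adjusted p 0.275).

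Eno1 (enolase) was at 18373, 16876, 16188 and 16956 in controls and at 14942, 15031, 15778 and 13950 in knockouts. The groups did not overlap, and the difference was -0.20 (SE 0.06) with an adjusted p of 0.115. Pkm (pyruvate kinase) was at 47916, 44916, 42168 and 46136 in controls and at 38004, 34525, 42232 and 37852 in knockouts. Knockout replicate 3 lay just above the lowest control, and the other 3 knockouts lay below all controls. The difference was -0.25 (SE 0.08) with an adjusted p of 0.124.

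Pyruvate leaves as lactate through lactate dehydrogenase and the monocarboxylate transporters. Ldha differed by 0.03 (SE 0.07, interval -0.13 to 0.20), at 12738 ± 1147 and 12990 ± 682. The lactate exporter Slc16a3 (MCT4), a known HIF target, was at 487, 493, 404.6 and 405.3 in controls and at 276.8, 224.2, 411.3 and 340.9 in knockouts. In 3 knockout libraries it lay below all controls, while knockout replicate 3 lay inside the control range. The difference was -0.54 (SE 0.18, interval -0.95 to -0.14), close in size to that of Pfkfb4 but with a larger SE and an adjusted p of 0.130. Slc16a1 (MCT1) differed by -0.05 (SE 0.09).

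**Figure D2:**
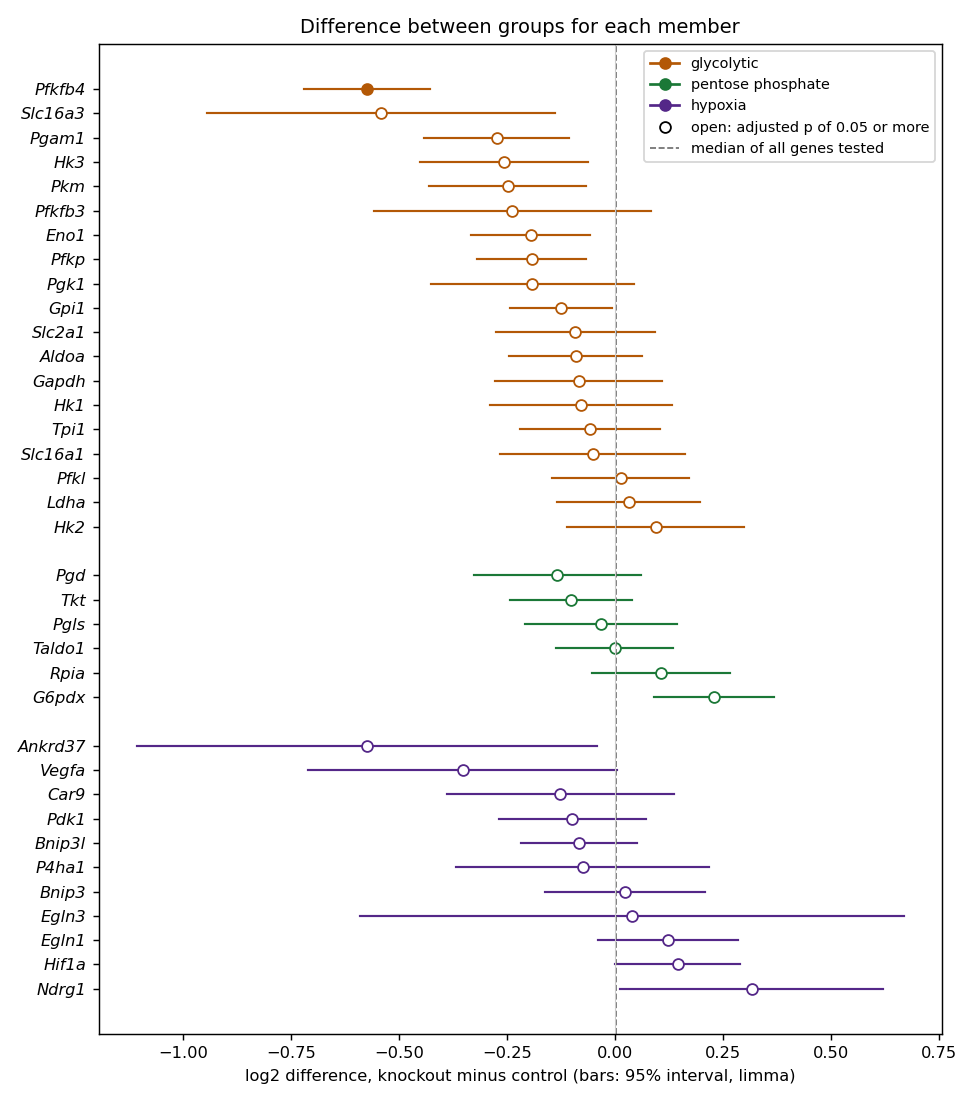
Difference between the groups for each of the 36 members (knockout minus control, log2 scale, horizontal axis) with its 95% interval from limma, by class, where filled points passed an adjusted p under 0.05. Only Pfkfb4, at -0.58, is filled, and the dashed line marks the median of all genes tested.

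In the pentose phosphate pathway, G6pdx encodes glucose-6-phosphate dehydrogenase, the entry enzyme and a source of NADPH. It was at 5175.9, 4439.7, 4552.3 and 4900.6 in controls and at 5306.2, 5542.9, 5894.5 and 5571.1 in knockouts. The groups did not overlap, although the highest control and the lowest knockout were close. The difference was 0.23 (SE 0.06, interval 0.09 to 0.37), a fold of 1.17, with a limma adjusted p of 0.0805. It passed the threshold in 4 of 18 alternatives: libraries scaled to the same total (0.0320), quantile normalization (0.0354), DESeq2 (0.0156) and array weights (0.0182). In edgeR the adjusted p was 0.0860.

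Of the 5 enzymes after G6pdx, Rpia had a higher mean value in the knockout and the others had lower ones, with overlapping groups for each. Pgls and Pgd, which complete the oxidative branch, differed by -0.03 (SE 0.08) and -0.13 (SE 0.09). In the non-oxidative branch, Tkt (transketolase) differed by -0.10 (SE 0.06) and Rpia (ribose 5-phosphate isomerase) by 0.11 (SE 0.07). Taldo1 (transaldolase), the most abundant pentose phosphate member per kilobase, was at 6482.3, 6302.8, 5709.5 and 6501.8 in controls and at 6202.6, 5835.2, 6396.2 and 6535.2 in knockouts. Those 2 sets of values were interleaved, with a difference of -0.00 (SE 0.06, interval -0.14 to 0.13).

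Among the hypoxia genes, Hif1a and Egln1 had slightly higher values in the knockout and the target genes were mixed, and none passed the test. Hif1a, the oxygen-regulated HIF subunit, was at 3268 ± 195 in controls and 3615 ± 238 in knockouts, a difference of 0.14 (SE 0.06) with an unadjusted p of 0.0504 and an adjusted p of 0.237. The prolyl hydroxylase Egln1 (PHD2) differed by 0.12 (SE 0.07). Egln3 (PHD3), itself a HIF target, was the lowest member, at 43.7 ± 16.2 and 42.8 ± 6.44, so that its interval ran from -0.59 to 0.67.

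Ankrd37, a small ankyrin repeat gene known as a HIF target, was at 110.5, 57.9, 78.4 and 62.9 in controls and at 43.9, 51.6, 42.5 and 64.7 in knockouts. Control replicate 1 was the highest, and knockout replicate 4 lay inside the control range. The difference was -0.58 (SE 0.24, interval -1.11 to -0.04), with an adjusted p of 0.204. Ndrg1, a stress-induced gene and the most abundant hypoxia member per kilobase, went the other way. It was at 4451.4, 6246.9, 5785.6 and 5011.4 in controls and at 7985.7, 6277, 5498.1 and 7023.8 in knockouts. Here 3 knockouts lay above all controls and knockout replicate 3 lay among them. The difference was 0.32 (SE 0.13, interval 0.01 to 0.62), with an adjusted p of 0.221.

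Vegfa, the angiogenic growth factor, was at 913.5, 777.6, 662.7 and 512.1 in controls and at 538.7, 508.8, 578.2 and 570.6 in knockouts. Its control libraries spread widely, and 3 of the 4 knockout libraries lay between the lowest control and the rest. The difference was -0.35 (SE 0.16, interval -0.71 to 0.00). The mitophagy genes Bnip3 and Bnip3l differed by 0.02 (SE 0.08) and -0.08 (SE 0.06). P4ha1 (a collagen prolyl hydroxylase), Pdk1 (which inhibits pyruvate dehydrogenase) and Car9 (a carbonic anhydrase) differed by -0.08, -0.10 and -0.13, with SEs of 0.13, 0.08 and 0.12. Their groups all overlapped.

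In the authors' deposited table of their own DESeq2 comparison, 5 of 19 glycolytic members were lower in the knockout at an adjusted p under 0.05, against 6.23% of all genes. In the authors' deposited table these were Pfkfb4, Pfkp, Pgam1, Eno1 and Pkm, with adjusted p-values from 4.86e-12 for Pfkfb4 to 0.0221 for Pfkp. G6pdx was the 1 pentose phosphate member higher in the knockout in the authors' deposited table (adjusted p 0.0155), against 4.65% of all genes. The authors' deposited table called 0 hypoxia members, as limma and edgeR did. DESeq2 on the recovered reads closely repeats the authors' comparison and is not a separate result. In both, 666 genes were called higher and 891 lower in the knockout.

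Levels of different genes can be compared only per length, and were divided here by the length of the principal transcript. On that scale the control means ran from 16.4 counts per kb for Egln3 to 21019 ± 2168 for Gapdh. Gapdh, Pkm (18620 ± 993) and Aldoa (16907 ± 872) led. Gapdh lay above Pkm by about its own SD, and Pkm lay above Aldoa by more than the SD of either. Together with Eno1 (8435 ± 452) and Ldha (7213 ± 650) they were the 5 highest members. Pfkfb4 ranked 21st of 36 at 903 ± 66.9, next to Pfkfb3 at 944 ± 229, and the SDs of those genes overlap. Slc16a3 ranked 34th at 103 ± 11.3. Members with p under 0.05 were thus found from the top (Pkm) to the bottom (Ankrd37) of the range.

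**Figure D3:**
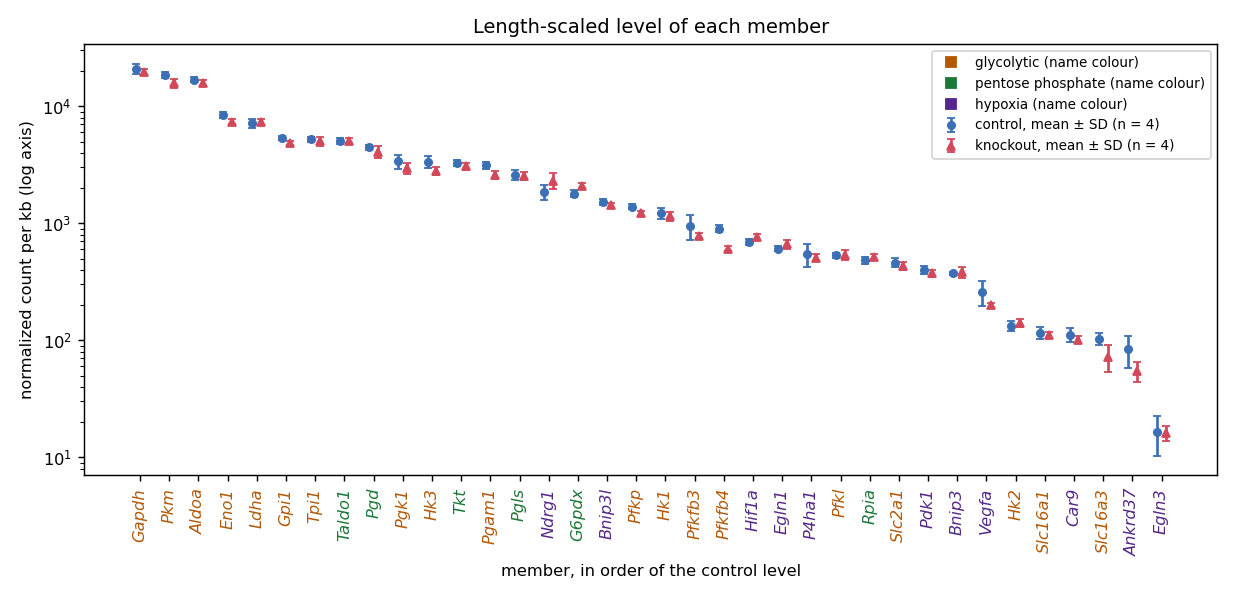
Level of each member in normalized counts per kb of its principal transcript (log axis), as mean ± SD of 4 control (circles) and 4 knockout (triangles) libraries, in order of the control mean. Levels run from Gapdh at 21019 down to Egln3 at 16.4, and Pfkfb4 in the middle has knockout values clearly below its controls.

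Several steps are carried out by isozymes, and the share of each in its family was taken from the levels per kb. Hk3 held 71.2% ± 2.88 of hexokinase transcript in controls and 68.4% ± 1.52 in knockouts. The share of Hk2 was small but separated the groups, at 2.73, 2.80, 2.90 and 2.83% in controls and 3.34, 4.16, 3.19 and 3.19% in knockouts. Each knockout library had a larger Hk2 share than any control library. Pfkp was the main phosphofructokinase, with 62.5% ± 1.61 in controls and 58.8% ± 2.86 in knockouts. Its highest knockout share, 60.84%, lay just under its lowest control share of 61.0%.

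In the PFKFB family, the share of Pfkfb4 was 49.2, 44.3, 44.1 and 39.9% in controls and 36.2, 36.8, 38.2 and 39.1% in knockouts. The shares did not overlap, but control replicate 4, where Pfkfb3 was highest, was within 1 percentage point of the knockouts. The minor isozymes took larger shares in every knockout library. Pfkfb1 went from 1.97% ± 0.425 to 3.19% ± 0.162 and Pfkfb2 from 8.08% ± 0.744 to 10.5% ± 0.738. The level of Pfkfb2 itself differed by 0.05 (SE 0.07), and that of Pfkfb1 by 0.38 (SE 0.13, adjusted p 0.146).

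Lactate dehydrogenase was almost wholly the A form, with Ldha at 95.9% of the family in both groups. Of the summed level of Slc16a1 and Slc16a3, Slc16a3 held 47.1% ± 1.48 in controls and 38.9% ± 5.98 in knockouts. Knockout replicate 3 (45.6%) reached the control range. Slc16a7, a further monocarboxylate transporter, was not part of this share. Egln2 (PHD1), with 70.8% ± 2.75 in controls and 67.6% ± 3.08 in knockouts, was the main prolyl hydroxylase transcript, ahead of Egln1. No test was run on these shares, since they are built from the members already tested.

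**Figure D4:**
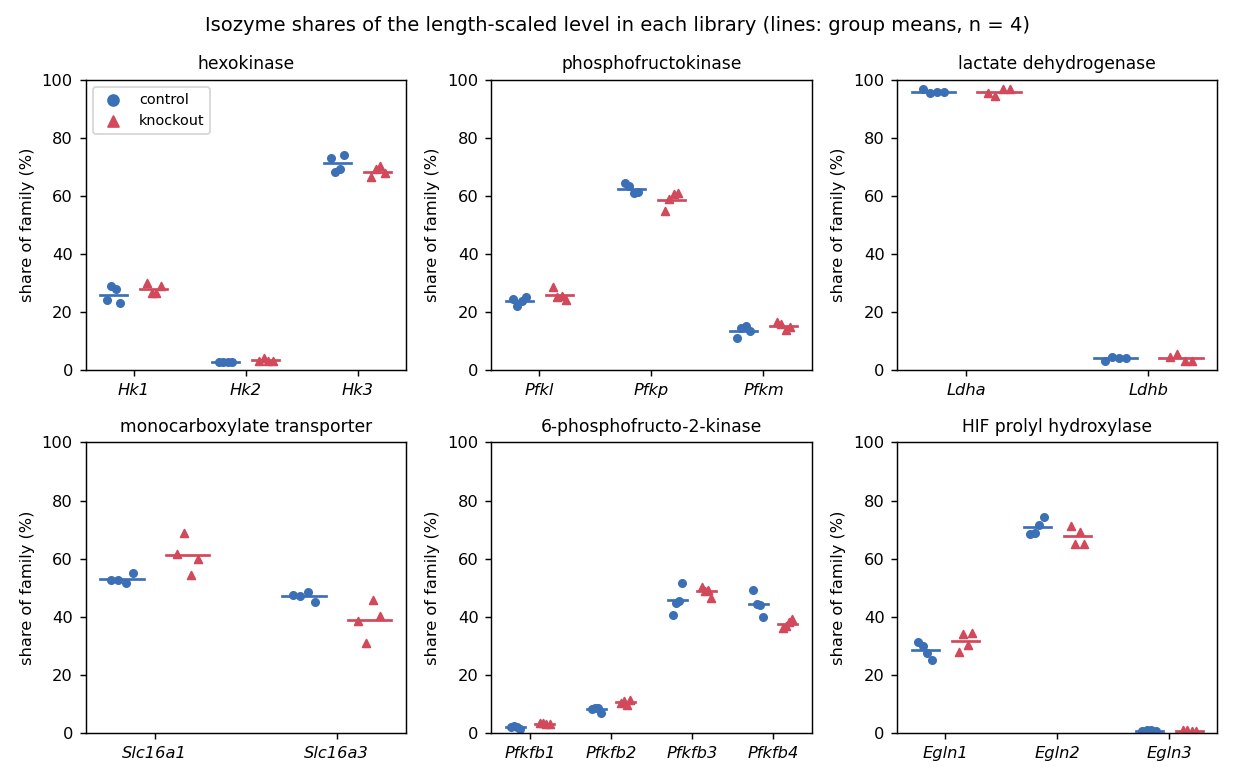
Share of each isozyme in its family (%, vertical axis) in each control (circles) and knockout (triangles) library, from levels per kb, with lines at the group means. Hk3, Pfkp, Ldha and Egln2 are the main forms, and the share of Pfkfb4 is lower in all 4 knockout libraries.

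HIF binds a short core sequence, ACGTG or GCGTG, so these letters were searched on both strands of RefSeq promoter windows (250 bases before to 50 after a start site, GRCm38.p6). ACGTG is also part of the E-box CACGTG, bound by other factors, and a palindromic E-box is counted here on each strand. Windows were found for 34 of the 36 members, with 45 start sites in all. ACGTG was present in 15 of 27 glycolytic windows (55.6%), 8 of 11 hypoxia windows (72.7%) and 1 of 7 pentose phosphate windows (14.3%), against 23.8% of 15181 windows of the genes tested. GCGTG was present in 51.9%, 54.5% and 85.7% of those windows, against 46.8%. Either form was present in 82.2% of the members' windows and 58.1% of windows of the genes tested.

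The windows of Pfkfb4, which fell, of Slc16a3, whose difference was close in size but did not pass, and of Ldha, whose level was nearly equal in both groups, are shown for comparison. Capitals mark ACGTG or GCGTG on either strand, read 5′ to 3′ along the gene.
Pfkfb4, chr9:108991652-108991951 (+): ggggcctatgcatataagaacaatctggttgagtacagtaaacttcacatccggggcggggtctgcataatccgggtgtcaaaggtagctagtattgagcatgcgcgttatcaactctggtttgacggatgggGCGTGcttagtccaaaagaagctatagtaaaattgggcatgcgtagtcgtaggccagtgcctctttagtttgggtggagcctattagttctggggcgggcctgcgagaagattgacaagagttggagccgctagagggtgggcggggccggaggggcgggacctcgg
Slc16a3, chr11:120948817-120949116 (+): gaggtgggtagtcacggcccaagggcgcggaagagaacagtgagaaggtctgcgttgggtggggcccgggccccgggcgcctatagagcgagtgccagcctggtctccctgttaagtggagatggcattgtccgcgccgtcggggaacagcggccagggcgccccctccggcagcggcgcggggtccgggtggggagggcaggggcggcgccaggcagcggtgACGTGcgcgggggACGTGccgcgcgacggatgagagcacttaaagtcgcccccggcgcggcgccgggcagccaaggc
Ldha, chr7:46845554-46845853 (+): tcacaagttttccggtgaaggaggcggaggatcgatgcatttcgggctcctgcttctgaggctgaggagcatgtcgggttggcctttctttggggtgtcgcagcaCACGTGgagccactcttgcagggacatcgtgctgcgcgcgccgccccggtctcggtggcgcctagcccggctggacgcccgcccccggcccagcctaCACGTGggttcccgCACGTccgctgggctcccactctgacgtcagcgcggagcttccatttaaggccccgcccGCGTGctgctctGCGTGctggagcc

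The Pfkfb4 window held 1 GCGTG and no ACGTG, and the Slc16a3 window 2 ACGTG. The Ldha window shown held 7 matches, among them 2 E-boxes, while a further Ldha window, not shown, held 2 GCGTG and no ACGTG. The genes shown were chosen by their differences, so no relation between matches and differences can be read from these windows. A match is only a run of letters, and binding was not measured here.

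The members also varied between libraries of the same group. Control replicate 1 was the highest control for 17 of 36 members, and for 7 of 11 hypoxia members, while it was the highest control for 31.5% of all genes. Control replicate 3 was the highest control for 0 of 36 members, against 18.3% of all genes, and the lowest for 44.4%, against 18.6%. In the knockout group, replicate 3 was the highest library for 12 of 19 glycolytic members, against 21.8% of all genes. The median deviation of the glycolytic members from the control mean was 0.06, -0.02, -0.06 and -0.01 in control replicates 1 to 4. It was -0.18, -0.20, -0.05 and -0.14 in knockout replicates 1 to 4, so that knockout replicate 3 alone reached the control range. The same measure over the macrophage markers was -0.35, -0.39, -0.30 and -0.39 in those knockout libraries, below all controls.

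The other genes of these pathways were taken from a wider list of 45 glycolytic and pyruvate, 8 pentose phosphate and 38 hypoxia genes, of which 41, 6 and 37 were tested. Of the glycolytic and pyruvate genes, 2 fell and 0 rose in limma, against 2.38% and 1.24% of all genes. At an unadjusted p under 0.05, 9 were lower and 5 higher, against 10.4% and 10.8% of all genes. Both that fell handle pyruvate and related acids. Slc16a7 (MCT2), a high-affinity monocarboxylate transporter, was at 1674, 1268.5, 1510.6 and 1437.5 in controls and at 896.38, 1075.8, 1067.1 and 1013.7 in knockouts, without overlap. Its difference was -0.54 (SE 0.09, adjusted p 0.0222). It no longer passed when control replicate 3 (0.0675), knockout replicate 1 (0.0579) or knockout replicate 4 (0.0593) was left out.

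Mpc1, a subunit of the mitochondrial pyruvate carrier, averaged 1391 ± 70.9 in controls and 1142 ± 66 in knockouts, without overlap. Its difference was -0.28 (SE 0.06, adjusted p 0.0421), but it missed the threshold whenever any 1 of the 8 libraries was left out (adjusted p 0.0507 to 0.113). It also missed it when libraries were scaled to the same total (-0.23, adjusted p 0.102). The aldolase isozyme Aldoc averaged 103 ± 12.1 and 57.7 ± 17.4, a difference of -0.86 (SE 0.22) with an adjusted p of 0.0673.

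None of the 6 further pentose phosphate genes passed in limma, against 3.61% of all genes. Lower values at an unadjusted p under 0.05 were found for 2 and higher values for 0, against 10.4% and 10.8% of all genes. The smallest p-values were those of Rbks (ribokinase), at -0.38 (SE 0.13, adjusted p 0.148), and Prps2 (phosphoribosyl pyrophosphate synthetase), at -0.16 (SE 0.06, adjusted p 0.191). Shpk (sedoheptulokinase) came next at 0.08 (SE 0.10).

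Of the 37 further hypoxia genes, 2 rose and 0 fell in limma, against 1.24% and 2.38% of all genes. At an unadjusted p under 0.05, 3 were lower and 8 higher, against 10.4% and 10.8% of all genes. Adora2b, the low-affinity adenosine receptor, was at 141.61, 141.28, 136.4 and 139.76 in controls and at 212.67, 234.07, 258.27 and 221.55 in knockouts. Controls were almost identical and every knockout was higher, a difference of 0.72 (SE 0.10, adjusted p 0.00764). It stayed past the threshold with any 1 library left out (adjusted p 0.0197 to 0.0353). P4ha2, a collagen prolyl hydroxylase, was at 616.39, 653.56, 610.39 and 552.05 in controls and at 812.9, 780.23, 832.21 and 898.34 in knockouts.

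P4ha2 thus also separated fully, with a difference of 0.45 (SE 0.07, adjusted p 0.0166). Leaving out replicate 3 of the controls gave an adjusted p of 0.0571, and leaving out replicate 3 of the knockouts gave 0.0519. Markers of fibroblasts, which make collagen, had a summed level 1.32 times as high in knockouts, with overlapping groups, and the part of those cells in P4ha2 was not tested. Hif1an (FIH), the asparaginyl hydroxylase that restrains HIF, averaged 1943 ± 32.6 and 1683 ± 86.1 without overlap, a difference of -0.21 (SE 0.05) with an adjusted p of 0.0608.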

How the data were processed

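Poly(A)-selected RNA of F4/80+ adipose tissue macrophages was sequenced in 4 control and 4 knockout samples, grouped by their genotype labels. The deposited expression table holds the authors' normalized counts per gene (a signal, not raw counts). FastQC, cutadapt, Salmon, DESeq2 and the build mm10 appear in the submitters' processing notes without versions or roles. All values (100%, to within 0.01 reads) were whole reads divided by 1 factor per library. In control replicate 4 that factor was near 1, with 1 read standing for a value of 0.998286. The smallest value is 1 read; no source used here says whether 1 was added to the counts. The authors' deposited DESeq2 comparison holds, per the file headers, a log2 fold change (control over knockout, so its sign is turned relative to the text), score columns (its error and statistic) and p-values, with the adjusted p given for 14309 genes.

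Values were tested as log2(value + 1) with limma 3.58.1 (R 4.3.3, eBayes with trend, two-sided, no covariate) over genes with a mean of at least 10, with Benjamini-Hochberg adjustment over all 15862 and a threshold of 0.05. The pseudocount shrinks the differences of low genes. The test was tried on simulated data with known changes. Alternatives, given in the closing section, were other pseudocounts, filters and scalings, array weights, edgeR 4.0.16 and DESeq2 1.42.0 on recovered reads, a replicate block, and leaving out each library. No pair of libraries in a group was alike within sampling noise (lowest chi-square per gene 8.86), so none was treated as a library deposited more than once. Values in every sample are given for members with a p under 0.05, groups that do not overlap, or the highest level per kb of their class. Of the further pathway genes those that passed and the 3 smallest p-values per class are named. Pfkfb3 and Vegfa were added after their values were seen. Members and lists were chosen with earlier results of these data known. No source used here says whether counting used strand.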

Additional observations from a re-analysis of the deposited data

Results flagged for a closer look

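Of the 72 groups of 4 values checked (36 members in 2 groups), 3 held a library far from the others by Dixon's criterion, where chance alone gives about 1 in 20. Hk3 in control replicate 4 was at 12582, while the other controls lay between 10100 and 10397. Pfkl in control replicate 4 was at 2119.4, with the other controls between 1914.9 and 1949. P4ha1 in control replicate 1 was at 2910, with the other controls between 1911.9 and 2025.5.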

How the results depend on the processing

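There were 18 alternatives to the main test. Pfkfb4 passed in 17 of them, including every one that left out a library, and 27 of 36 members kept their sign in all. The number of glycolytic members called was 5 with DESeq2 and 0 with the replicate block. The number of pentose phosphate members called was 1 (G6pdx) with equal totals, quantile normalization, DESeq2 or array weights. The median difference of the glycolytic members was -0.067 with equal totals, where the median of all genes was 0.06. Further pathway genes called numbered 11 with DESeq2, 7 with array weights, 0 with the replicate block and 1 to 5 when a library was left out, with 1 without control replicate 3 and 2 without knockout replicate 1, 3 or 4. Over all genes, calls numbered 1557 with DESeq2, 931 with array weights, 7 with the replicate block and 163 (without control replicate 3) to 502 (without control replicate 2) when a library was left out; leaving out any library but that one cut the number by over 1.5 times. The cause was not tested. With the replicate block, Pfkfb4 had an adjusted p of 0.0818, Adora2b 0.149, P4ha2 0.193, Slc16a7 0.193 and Mpc1 0.241. The replicate numbers were not taken as pairs, since same-numbered libraries did not deviate together (correlations across genes from -0.293 to -0.036).

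Genes whose sign reversed had differences from -0.084 (Gapdh) to 0.079 (Shpk) in the main test. With quantile normalization Bnip3 was -0.011, Egln3 -0.077, Shpk -0.026, Taldo1 0.059 and Tpi1 0.0020. With equal totals Pgls was 0.026, Slc16a1 0.0065 and Taldo1 0.058. With array weights Egln3 was -0.25, Gapdh 0.0020, P4ha1 0.023, Slc16a1 0.025, Taldo1 0.061 and Tpi1 0.011. With edgeR Egln3 was -0.018 and Taldo1 0.0025, and with DESeq2 Egln3 was -0.016. With 1 library left out, Bnip3 ranged from -0.042 to 0.077, Egln3 from -0.17 to 0.21, P4ha1 from -0.14 to 0.067, Pfkl from -0.048 to 0.047 Pgls from -0.069 to 0.030 and Taldo1 from -0.044 to 0.031. Egln3 and Ankrd37, the members with the lowest counts, had intervals of -0.59 to 0.67 and -1.11 to -0.04, and the part of counting error in them was not tested.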
